A study of Mus musculus with 4 samples.

Results

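Interferon-stimulated genes are the genes that cells switch on when interferon reaches them. A set of 43 of them was described here across the cell types of mammary tumours grown in hosts with or without interleukin 1α. The members were taken by symbol from the 31053 mouse features of the count matrices. All 43 had at least 1 unique molecular identifier (UMI, a tag that marks 1 captured transcript) in the called cells of every library. They were grouped by role into 18 antiviral effectors, 4 sensors of viral nucleic acid, 4 transcription factors, 10 GTPases of the guanylate-binding and immunity-related families and 7 others.

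Interferons are secreted proteins, and type I and type II interferon are read by separate cell-surface receptors that signal through Jak kinases and Stat transcription factors. After type I interferon, a complex that holds Stat2 and Irf9 binds the interferon-stimulated response element (ISRE), whereas interferon gamma, the type II interferon, acts through the gamma-activated site (GAS). In tumours, interferon gamma comes mainly from T and natural killer cells, and plasmacytoid dendritic cells are known for their capacity to make type I interferon.

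HER2+ H605 mammary tumour cells had been transplanted orthotopically, to the mammary pad, in FVB/NJ mice that were either wild type (WT) or IL1α-/-, here written Il1a-/- after the mouse gene symbol. Only the host carries the knockout: the transplanted tumour line is the same in both groups. There were 2 tumours per genotype, each 1 library, and each was taken at day 14. The labels give an age of 6 to 8 weeks in the field for the cell type, state that the tumours came in pairs with different collection days, and do not say which libraries form a pair or which part of Il1a the allele removes. All tumours came from this 1 transplanted line, with 2 hosts per genotype. The labels do not state that the 2 tumours of a genotype came from independent experiments, so p-values measure only the spread between these libraries.

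The libraries held 23464120 and 29001333 UMIs in the WT group and 6705368 and 15298532 UMIs in the Il1a-/- group, and the deeper knockout library did not reach the shallower WT library. There were 14555 called cells, with a median of 3143 and 4209.5 UMIs per cell in WT and 1361 and 2902 in the knockout. Only 26 of them carried a barcode that occurs in more than 1 library. Il1a itself was at 3.40 and 4.39 CPM (counts per 1000000 UMIs) over all cells of the WT tumours and at 0.176 and 0 CPM in the knockout tumours (log2 fold change -5.92, SE 0.88, edgeR adjusted p = 0.0483). Cells were assigned to classes by the UMIs of marker genes, none of which is a member, and the classes are called T/NK-like (T and natural killer cells, 8423 cells), phagocyte-like (1551), fibroblast-like (1069), plasmacytoid dendritic-like (472), conventional dendritic-like (144) and tumour epithelial-like (624). Each of the 11 T/NK, 8 fibroblast, 7 plasmacytoid dendritic and 8 tumour markers was highest in its own class among the 7 classes with at least 50 cells, as were 9 of 12 phagocyte markers (not Cd68, Cd14 and Lst1). This describes the assignment and does not test it. The tumour marker Krt19 was low, at 8.18 CPM. Tests were run where every library held at least 20 cells of a class, which left out the conventional dendritic-like class (13 cells in Il1a-/- replicate 1) and the tumour epithelial-like class (2 cells in Il1a-/- replicate 2).

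Stretches upstream of 7 members, picked from those with a match, show short sequence motifs that some of these genes carry. RefSeq's table for GRCm38.p6 held 33 of the 43 members, and the 250 bases before each start were searched on both strands for the ISRE core GAAANNGAAA and for the GAS core TTCNNNGAA, which reads the same on either strand. An ISRE core was present for 18 of the 33 members (54.5%), against 3.46% of the 27025 genes in the table. A GAS core was present for 9 of the 33 (27.3%), against 8.13%. By role, the ISRE core was found for 7 of 8 GTPases, 10 of 16 antiviral effectors, 1 of 4 transcription factors, 0 of 2 sensors and 0 of 3 others, and the GAS core for 4 of 8 GTPases and 4 of 16 effectors. The stretches are given for 6 genes on which the later comparisons turn and for Igtp as an example of the GTPases. Each lies upstream of its own gene's annotated body. All are written 5′ to 3′ on the strand of the gene, and carry the motif matches in capitals. Where the core reads TTTCNNTTTC the match is on the opposite strand.
Rsad2, chr12:26456546-26456587, minus strand, ISRE core: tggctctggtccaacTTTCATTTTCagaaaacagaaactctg
Isg15, chr4:156200858-156200911, minus strand, overlapping ISRE cores: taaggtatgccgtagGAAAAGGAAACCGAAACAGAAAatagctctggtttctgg
Ifit1, chr19:34640770-34640830, plus strand, a pair of ISRE cores: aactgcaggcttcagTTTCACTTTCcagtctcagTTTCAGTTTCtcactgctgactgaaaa
Ifit3, chr19:34583358-34583433, plus strand, a pair of ISRE cores: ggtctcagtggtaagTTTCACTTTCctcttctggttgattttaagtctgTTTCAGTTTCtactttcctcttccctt
Irf1, chr11:53769909-53769950, plus strand, GAS core: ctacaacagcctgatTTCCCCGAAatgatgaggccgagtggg
Igtp, chr11:58199496-58199548, plus strand, GAS then ISRE core: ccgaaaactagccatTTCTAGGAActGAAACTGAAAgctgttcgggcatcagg
Bst2, chr8:71537570-71537623, minus strand, GAS core overlapping ISRE cores: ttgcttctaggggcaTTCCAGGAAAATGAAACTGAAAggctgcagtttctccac

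Rsad2, Isg15, Ifit1 and Ifit3 have the ISRE core alone, Irf1 has the GAS core alone, and Igtp and Bst2 have both. For Irf7 neither core occurs in its 250 bases. A match describes the letters and is no evidence of binding.

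The first comparison asked which cell types carried these transcripts. The 43 genes took 0.146% to 0.255% of all UMIs in T/NK-like cells, 0.274% to 0.579% in phagocyte-like cells, 0.368% to 0.539% in plasmacytoid dendritic-like cells and 0.298% to 0.612% in fibroblast-like cells over the 4 libraries. With all 43 genes counted, T/NK-like cells were lowest of these 4 classes in every library. A few genes made up much of these sums. Ifitm3, which blocks entry of viruses into the cell, was at 1136 ± 320 CPM (mean ± SD, n = 4) in phagocyte-like cells and 1322 ± 645 CPM in fibroblast-like cells. Bst2, the virus tether also known as tetherin, was at 2632 ± 327 CPM in plasmacytoid dendritic-like cells, against 45.6 ± 21.3 CPM in T/NK-like cells. Ifi27l2a, a small interferon-induced protein, was at 446 ± 194 CPM in T/NK-like cells and 504 ± 522 CPM in fibroblast-like cells, where the libraries ran from 150 to 1255 CPM. Without Ifitm3, Bst2 and Ifi27l2a the order of the classes changed. Plasmacytoid dendritic-like cells then fell below T/NK-like cells in WT replicate 1 (0.0939% against 0.102%) and Il1a-/- replicate 2 (0.141% against 0.162%). They stayed above in WT replicate 2 (0.139% against 0.130%) and Il1a-/- replicate 1 (0.161% against 0.128%). CPM from 3′ tags counts transcripts of a gene and is compared here between cell types and not between genes.

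**Figure D1:**
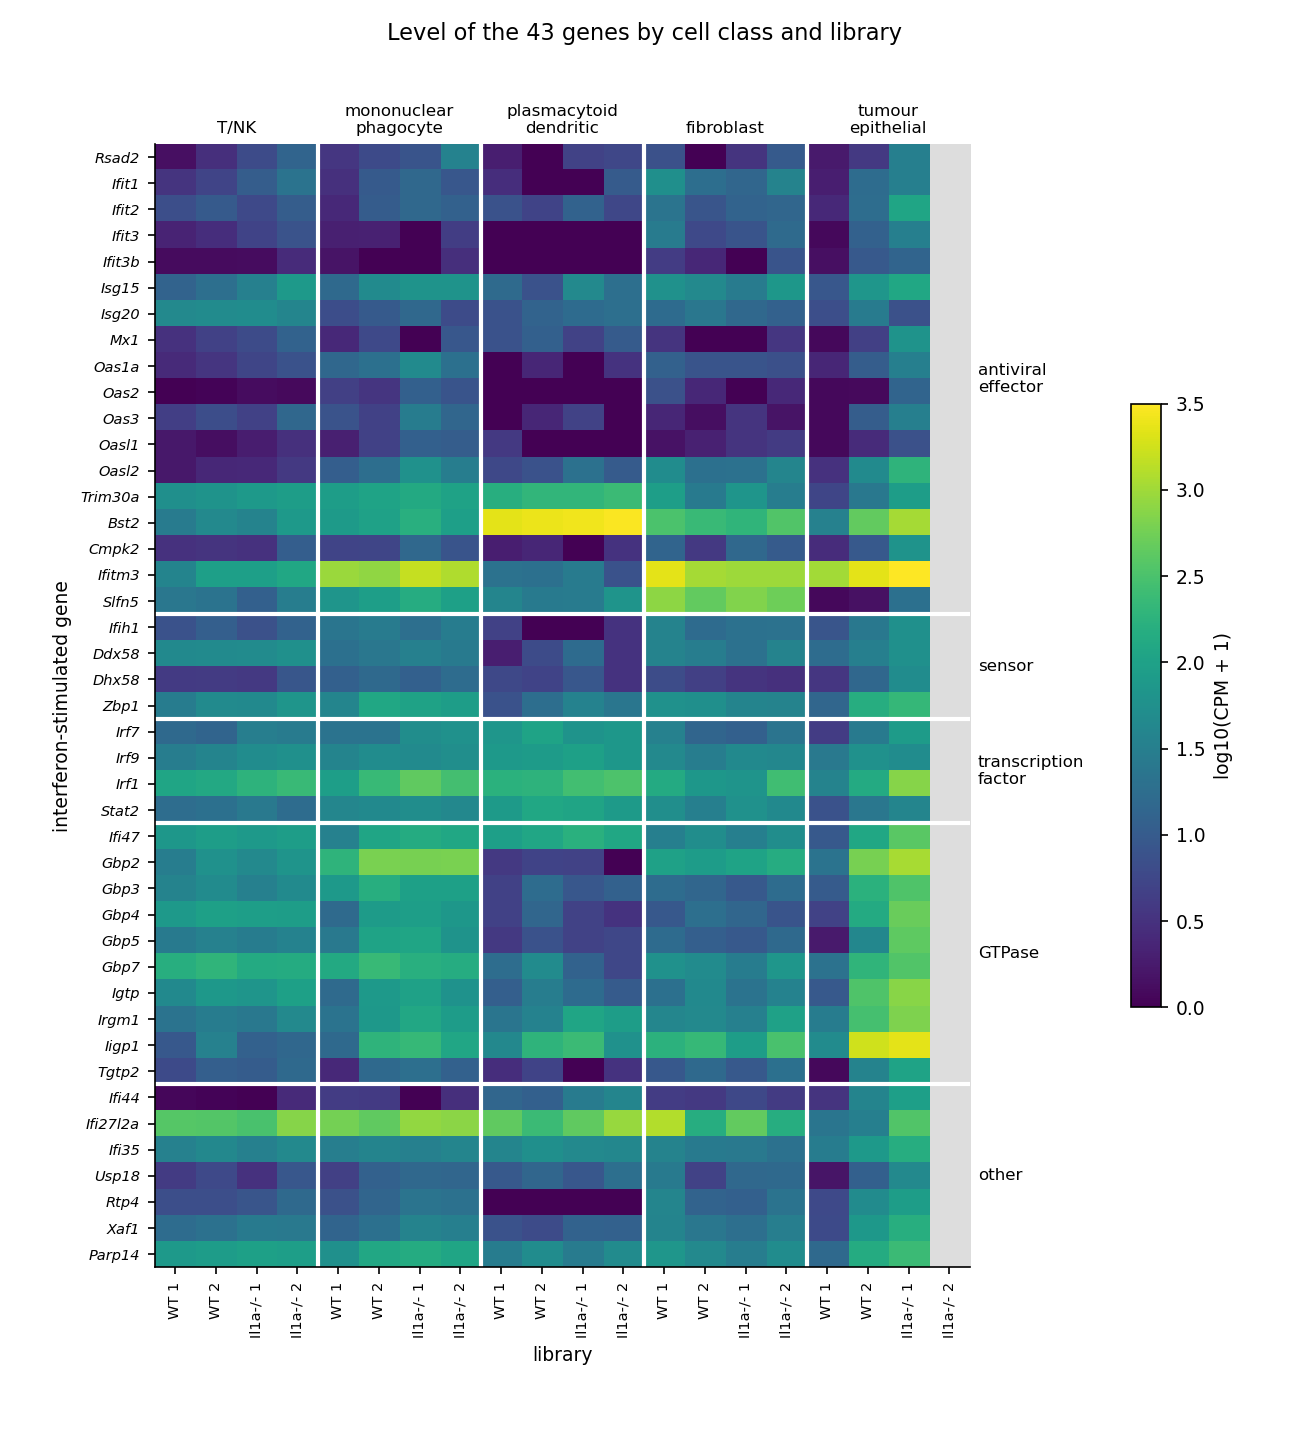
Level of the 43 genes as log10(CPM + 1) in 5 cell classes (column blocks) and 4 libraries (columns), with genes in rows grouped by role; the suffix "-like" is left out. Bst2 is brightest in plasmacytoid dendritic cells, Slfn5 in fibroblasts, and the tumour epithelial columns differ most between libraries. The tumour epithelial column of Il1a-/- replicate 2, which had 2 cells, is grey and shows no values.

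Phagocyte-like cells had more of these transcripts than T/NK-like cells for many members. Of 40 members tested, 18 were higher in phagocyte-like cells and 2 lower (edgeR adjusted p under 0.05, libraries as blocks), against 27.7% higher and 28.9% lower among the 11049 genes tested. The median log2 difference was 0.71 for the members and -0.07 for all genes. The members with the largest differences were Oasl2, an oligoadenylate synthetase-like gene (log2 difference 3.86, SE 0.46, adjusted p = 1.58e-06), Ifitm3 (3.78, SE 0.37, adjusted p = 1.34e-07) and Gbp2, a guanylate-binding GTPase (3.43, SE 0.25, adjusted p = 2.61e-09). Isg20, an antiviral exonuclease, went the other way at -2.49 (SE 0.23, adjusted p = 8.16e-08), as did Ddx58, which encodes the RNA sensor RIG-I, at -0.94 (SE 0.23, adjusted p = 0.00207). T/NK-like cells held 44.7 ± 5.48 CPM of Isg20 and phagocyte-like cells 8.57 ± 4.19 CPM, with no overlap between the 4 libraries of each class.

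In fibroblast-like cells the direction varied among members. Of the same 40 members, 19 were higher than in T/NK-like cells and 10 lower, against 34.1% and 34.3% of all genes. Among 15 effectors tested 10 were higher and 3 lower, whereas among 10 GTPases 3 were higher and 6 lower; the difference between roles was not tested. With each cell thinned to 1000 UMIs, 7 members were higher and 5 lower, and the share of all genes in that fit was not worked out. Slfn5, a schlafen family gene, stood at 622 ± 158 CPM in fibroblast-like cells and 21.0 ± 7.90 CPM in T/NK-like cells (log2 difference 5.06, SE 0.29, adjusted p = 5.13e-11). Gbp4 was among the lower ones, at 11.6 ± 4.85 against 87.8 ± 7.80 CPM (-2.78, SE 0.31, adjusted p = 4.72e-07). Iigp1, a GTPase that attacks the vacuoles of intracellular parasites, was higher (4.04, SE 0.52, adjusted p = 2.44e-06).

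Plasmacytoid dendritic-like cells had high levels of the interferon signalling factors and low levels of most GTPases. Against T/NK-like cells 9 of 40 members were higher and 17 lower, with 20.3% and 23.2% of all genes as the background, and the median log2 difference was -1.19 for members and -0.13 for all genes. Of the 4 transcription factors, 3 were higher. Stat2 was at 97.0 ± 21.4 against 19.0 ± 3.86 CPM (2.37, SE 0.19, adjusted p = 1.71e-08), Irf7, the factor that drives type I interferon genes, at 76.3 ± 20.2 against 21.1 ± 8.89 CPM (2.04, SE 0.36, adjusted p = 0.000195), and Irf9 at 81.0 ± 12.3 against 42.9 ± 11.9 CPM (0.95, SE 0.19, adjusted p = 0.000658). Bst2 (5.89, SE 0.27, adjusted p = 1.69e-11) and Ifi44 (5.31, SE 0.59, adjusted p = 1.21e-06) were far higher. Of the 10 GTPases, 7 were lower, among them Gbp7 (-2.88, SE 0.33, adjusted p = 1.53e-06) and Gbp2 (-3.99, SE 0.51, adjusted p = 5.15e-06), and 1 was higher, Iigp1 (2.84, SE 0.55, adjusted p = 0.000404). Free RNA was put at 22.7%, 105% and 70.7% of the Gbp2 level of this class in 3 libraries, and the fourth had no UMI, so that its fold is uncertain. For Gbp7 the share was at most 20.3%. Thinned to 1000 UMIs per cell, 5 members were higher and 10 lower, again without the share of all genes in that fit. Rtp4 and Ifit3 had no UMI in the 2503342 UMIs of these cells. Taking 3 counts over the class as the limit that a count of 0 allows, Rtp4 was at least 7.08-fold lower and Ifit3 at least 2.92-fold lower than in T/NK-like cells, and the median stays at -1.19 with both genes at these bounds.

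Ranked by mean level over the 4 tested classes, 16 members were highest in phagocyte-like cells, 14 in fibroblast-like cells, 9 in plasmacytoid dendritic-like cells and 4 in T/NK-like cells. This ranking was made for the members alone. The share among all genes was not worked out, so the counts do not set the members apart from other genes. The lead was clear, meaning that every library of the leading class exceeded every library of the next, for 13 members. Those were Oas1a, Dhx58, Gbp2 and Gbp3 in phagocyte-like cells, Slfn5 in fibroblast-like cells, Irf7, Irf9, Stat2, Ifi44, Trim30a and Bst2 in plasmacytoid dendritic-like cells, and Isg20 and Ddx58 in T/NK-like cells. For the other 30 the ranges of the first and second class overlapped. Irf1, a factor induced by either type of interferon, was one of these: 261 ± 146 CPM in phagocyte-like cells, 239 ± 76.2 in plasmacytoid dendritic-like cells, 164 ± 53.8 in T/NK-like cells and 136 ± 95.3 CPM in fibroblast-like cells.

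The second comparison set Il1a-/- hosts against WT hosts. Over all called cells, 1 of 43 members passed the test. Rsad2, which encodes viperin, an enzyme that makes a chain terminator for viral RNA synthesis, was at 1.52 and 2.19 CPM in WT tumours and at 8.43 and 13.6 CPM in Il1a-/- tumours (log2 fold change 2.65, SE 0.38, edgeR adjusted p = 0.0483). Both knockout libraries were above both WT libraries. Among the 14093 genes tested, 1.23% were higher and 1.48% lower in the knockout. Without any 1 of the 4 libraries no member passed, and the Rsad2 fold change ranged from 2.21 to 2.97. Of the 43 members, 36 had a log2 fold change above 0 (median 0.40, all genes -0.01). Without WT replicate 1 that median was -0.00823. Knockout libraries were both above both WT libraries for 15 members and both below for 1, against 24.5% and 37% of all genes.

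After Rsad2 the largest differences over all cells were those of Oasl1 (log2 fold change 1.39, adjusted p = 0.149) and Mx1 (1.30, adjusted p = 0.115), neither of which passed. Among the 18 effectors 11 were higher in both knockout libraries, and among the 10 GTPases none were. Gbp2 was at 51.1 and 259 CPM in WT and 127 and 157 CPM in the knockout, so the 2 WT tumours spanned both knockout tumours. Ifitm3 was the member lower in both knockout libraries, at 679 and 741 against 458 and 399 CPM (-0.65, SE 0.16, adjusted p = 0.0829). Within phagocyte-like cells Ifitm3 was higher in both knockout libraries, at 947 and 833 against 1553 and 1212 CPM (0.65, adjusted p = 0.261). A sum over all cells mixes the make-up of the tumour with the level per cell, and the make-up differed. Tumour epithelial-like cells were 8.87% and 6.04% of called cells in WT and 0.778% and 0.06% in the knockout, and held 5285 and 10636 Ifitm3 UMIs against 660 and 2. Phagocyte-like cells were 9.70% and 17.3% against 4.2% and 10.0%. Fewer cells of a type and less RNA per cell cannot be told apart in it.

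By share of members tested, calls were most frequent in plasmacytoid dendritic-like cells, described below. By count T/NK-like cells gave the most calls, and they also held the most UMIs. Of 39 members that passed the filter on low counts, 5 rose and none fell in the Il1a-/- hosts, against 2.87% higher and 2.01% lower among 11038 genes. The 5 were 4 antiviral effectors and Irf7. Irf7 rose from 14.6 and 12.4 CPM to 30.1 and 27.3 CPM (log2 fold change 1.12, SE 0.18, edgeR adjusted p = 0.0207). Ifit1, which binds RNA lacking the host's cap methylation, rose from 2.33 and 4.25 CPM to 9.84 and 20.6 CPM (2.26, SE 0.42, adjusted p = 0.031). Isg15, a ubiquitin-like modifier, rose from 11.9 and 18.2 CPM to 32.3 and 74.9 CPM (1.89, SE 0.39, adjusted p = 0.0401). In each of these genes the lower knockout library was above the higher WT library, and Il1a-/- replicate 2 was the highest for both effectors.

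Rsad2 rose in T/NK-like cells from 0.411 and 1.95 CPM to 5.23 and 12.5 CPM, which rests on 3 and 22 UMIs in WT and 17 and 103 UMIs in the knockout (2.88, SE 0.61, adjusted p = 0.0418). Ifit3, a partner of Ifit1, rose from 1.23 and 1.86 CPM to 4.0 and 6.91 CPM (1.88, SE 0.42, adjusted p = 0.0489). DESeq2 also called 5 members, with Irf1 in place of Ifit3. Leaving out Il1a-/- replicate 2 gave a median log2 fold change of 0.129 for the members. Over the fits that each left out 1 library, this median ran from 0.129 to 0.926, and the calls did not hold in every fit. Irf7 kept its size in these fits, between 1.01 and 1.22, whereas Rsad2 ranged from 2.02 to 4.5.

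Most other members did not pass in T/NK-like cells. The 39 tested had a median log2 fold change of 0.54 (all genes -0.02), 35 of 39 were above 0, and 15 were higher in both knockout libraries and 1 lower in both (Gbp7), against 24.6% and 32.9% of all genes. Irf1 was at 112 and 129 CPM in WT and 182 and 231 CPM in the knockout (0.81, SE 0.19, adjusted p = 0.0531), and Stat2 at 16.8 and 18.4 against 24.6 and 16.1 CPM (0.19, adjusted p = 0.636). The 15 effectors tested had a median of 1.10 and the 10 GTPases one of 0.09. Gbp7 was at 154 and 195 against 138 and 143 CPM (-0.28, adjusted p = 0.364). Ifi27l2a was at 373 and 368 against 309 and 733 CPM (0.53, adjusted p = 0.383), and Bst2 (0.72, adjusted p = 0.252), Gbp2 (0.34, adjusted p = 0.543) and Ifitm3 (0.71, adjusted p = 0.292) did not pass either.

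**Figure D2:**
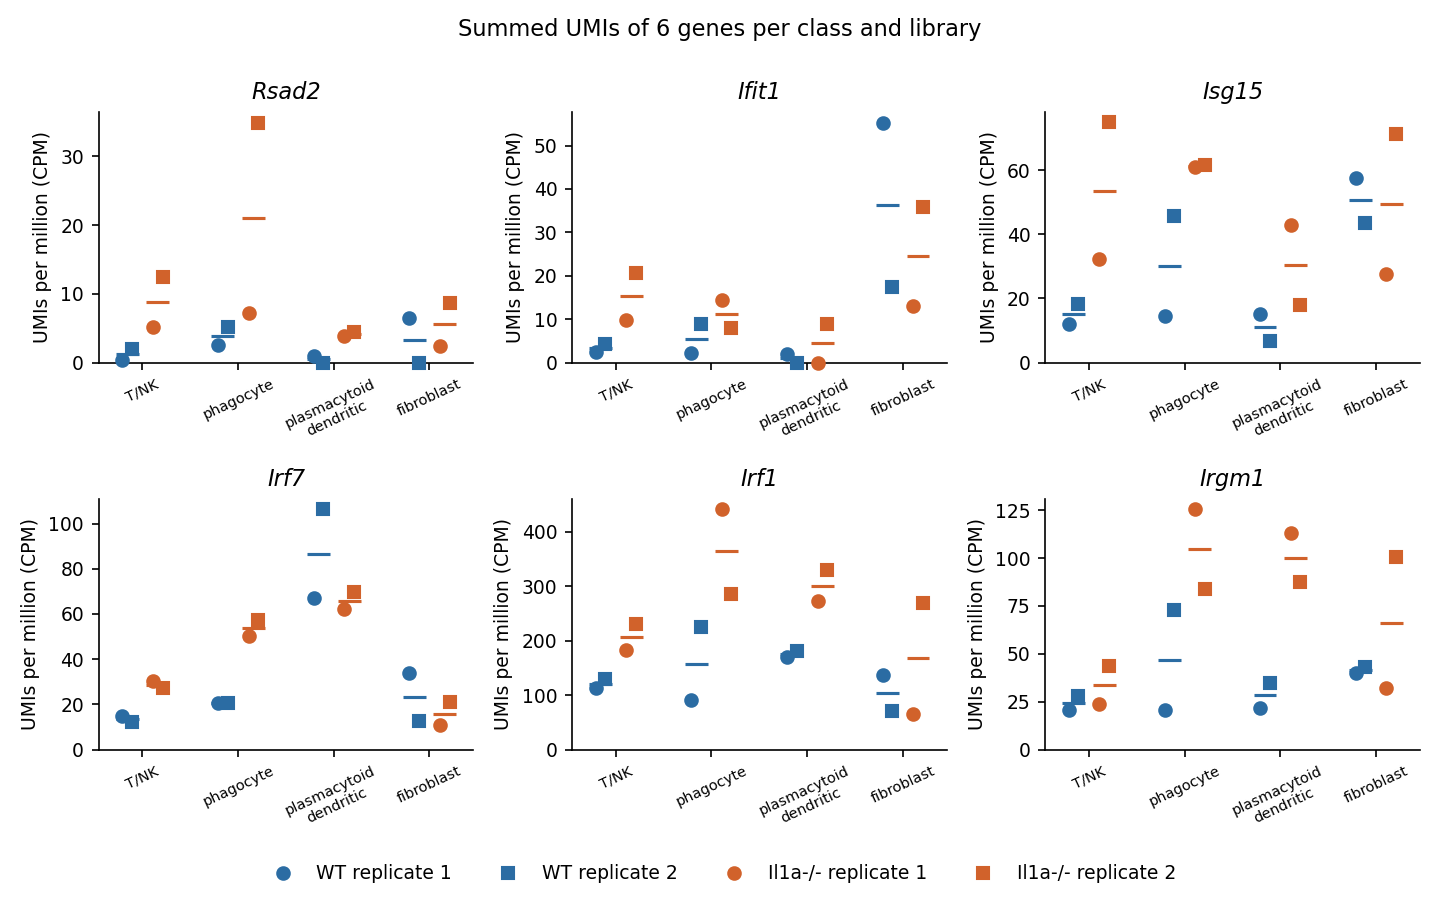
Summed level (CPM) of 6 genes in 4 cell classes; points are libraries and short bars are group means (n = 2), with the suffix "-like" left out. Rsad2, Ifit1, Isg15 and Irf7 sit higher in both Il1a-/- libraries in T/NK cells, and Irgm1 and Irf1 in plasmacytoid dendritic cells, while in fibroblasts the groups overlap for each of the 6.

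The T/NK-like class is itself a mixture whose make-up differed between genotypes. There were 129 and 267 CD8 T-like cells in WT tumours and 841 and 807 in Il1a-/- tumours, while the counts were, for CD4 T-like cells, 324 and 390 against 101 and 279, and for NK-like cells 677 and 647 against 400 and 347. The members were therefore fitted within each subset, a choice made after the data were seen. The whole class held 2014 and 2190 cells in WT and 2045 and 2174 in Il1a-/- tumours, so many of its cells lay in none of these subsets. In NK-like cells 4 of 28 members tested were higher and 1 lower (8.54% and 7.5% of all genes), in CD4 T-like cells 4 of 28 higher and 0 lower (3.62% and 1.77%), and in CD8 T-like cells 1 of 33 higher and 0 lower (0.742% and 0.835%).

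Irf7 was higher in the knockout within NK-like cells, at 20.3 and 12.0 against 49.3 and 43 CPM (1.49, SE 0.29, edgeR adjusted p = 0.00109). It was also higher within CD4 T-like cells (2.54, SE 0.54, edgeR adjusted p = 0.00662). There it was at 5.46 and 6.69 CPM in WT (7 and 15 UMIs) against 82.8 and 23.5 CPM in the knockout (12 and 19 UMIs). In CD8 T-like cells it was at 16.6 and 13.4 against 21.6 and 20.5 CPM (0.49, adjusted p = 0.569). Isg15 was higher in CD4 T-like cells (1.88, SE 0.33, edgeR adjusted p = 0.0017), at 14 and 16.9 CPM in WT (18 and 38 UMIs) against 62.1 and 55.6 CPM in the knockout (9 and 45 UMIs). Its values in CD8 T-like cells, 11.1 and 12.8 against 29.1 and 76.4 CPM, missed the threshold (2.12, SE 0.49, adjusted p = 0.0658). Ifit1 in CD4 T-like cells passed (4.17, SE 0.75, adjusted p = 0.00198) on 1 and 3 UMIs in WT and 5 and 15 UMIs in the knockout. In CD8 T-like cells Ifit1 was at 7.38 and 5.74 against 8.74 and 21.7 CPM (1.33, edgeR adjusted p = 0.309). In NK-like cells it was at 1.56 and 5.85 against 2.06 and 1.13 CPM, too rare to be tested. Ifit3 overlapped between the groups in CD8 T-like cells, at 7.38 and 2.55 against 2.91 and 7.62 CPM (0.51, edgeR adjusted p = 0.799). In NK-like cells Ifit3 was at 1.56 and 4.22 against 2.06 and 1.13 CPM. In CD4 T-like cells it had 0 UMIs in WT and 1 in each knockout library. Irf1 passed in NK-like cells (0.79, adjusted p = 0.00438) and in CD4 T-like cells (1.04, adjusted p = 0.0173), and in CD8 T-like cells it was at 0.63 (adjusted p = 0.251). Differences between subsets were not tested.

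Of the 17 and 103 Rsad2 UMIs of the knockout libraries, 8 and 59 lay in CD8 T-like cells, against 4 and 5 in CD4 T-like cells and 0 and 2 in NK-like cells. The other UMIs lay in T/NK-like cells of no subset. Per subset the knockout values are 4.66 and 13.6 CPM in CD8 T-like cells and 27.6 and 6.17 CPM in CD4 T-like cells, an order that differs between the libraries. In WT tumours CD8 T-like cells held 2 and 1 Rsad2 UMIs (3.69 and 0.638 CPM) and CD4 T-like cells 0 and 1. NK-like cells held 0 and 17 UMIs in WT. At 0 and 5.52 CPM in WT against 0 and 2.26 CPM in the knockout, they showed no rise, but these counts are too low to exclude one. Rsad2 was too rare to be tested in any subset. Ifitm3 showed a difference in CD8 T-like cells that the whole class had not: 5.53 and 8.93 CPM in WT (3 and 14 UMIs) and 87.4 and 117 CPM in Il1a-/- (150 and 508 UMIs), which is 3.66 on the log2 scale (SE 0.35, edgeR adjusted p = 0.00242). The part of Ifitm3 that free RNA gives in the whole T/NK-like class was put at 6.33 and 5.24 CPM in the WT libraries, with 9.08 and 9.74 CPM at the highest gene's share. The WT values in CD8 T-like cells lie near that background, so the size of the fold is not settled. In CD4 T-like cells it was at 123 and 316 against 393 and 296 CPM, and in NK-like cells at 8.58 and 21.4 against 18.5 and 14.7 CPM, with overlapping groups in both. In NK-like cells Isg20 fell from 29.3 and 38.6 CPM to 14.4 and 6.79 CPM (-1.85, SE 0.38, adjusted p = 0.0017), and Zbp1, a sensor of Z-form nucleic acid, rose from 24.2 and 28.3 CPM to 45.2 and 57.7 CPM (0.98, SE 0.24, adjusted p = 0.00734). Irf9 rose there too (0.72, adjusted p = 0.0465).

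Transcripts released from other cells can enter a droplet. In T/NK-like cells, 8 genes of fibroblasts and macrophages that were no gate markers stood at a median of 0.931% to 1.33% of their level in cell-free droplets. Applied to the members, that share gives between 0.579% and 3.0% of the T/NK-like level of the 5 genes that rose, over the 4 libraries. For Ifitm3 it gives 2.71% to 16.9% of the level in the class.

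In phagocyte-like cells no member passed the test. Of 39 tested, edgeR called 0 and DESeq2 called 0, where 0.284% of 8807 genes were called higher and 0.0568% lower. At an unadjusted p under 0.05, 10 members (25.6%) were higher and none lower, against 7.93% and 5.67% of all genes. The members had a median log2 fold change of 0.64 (all genes -0.02), 36 of 39 were above 0, and 19 were higher in both knockout libraries and none lower, where 20.3% and 27.1% of all genes were. Irf7 was at 20.4 and 20.5 CPM in WT and at 50.3 and 57.1 CPM in the knockout (1.47, SE 0.25, adjusted p = 0.0685). Rsad2 was at 2.62 and 5.12 against 7.19 and 34.8 CPM (2.76, SE 0.58, adjusted p = 0.0933), where the highest value is that of Il1a-/- replicate 2. Without that library its fold change was 0.741.

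Other members of phagocyte-like cells did not pass either. The oligoadenylate synthetase family, whose products activate RNase L, gave 6.81 and 3.77 against 28.8 and 13.1 CPM for Oas3 (1.79, adjusted p = 0.202) and 1.05 and 3.77 against 10.8 and 9.85 CPM for Oasl1 (1.90, adjusted p = 0.259). Isg15 was at 14.7 and 45.8 against 61.1 and 61.7 CPM (0.99, adjusted p = 0.4). Ifi27l2a was at 581 and 435 against 859 and 789 CPM (0.72, adjusted p = 0.222), Bst2 at 79.1 and 98.6 against 158 and 92.6 CPM (0.43, adjusted p = 0.526) and Stat2 at 39.3 and 44.7 against 50.3 and 42.7 CPM (0.13, adjusted p = 0.862). For the GTPases WT replicate 1 stood apart: Gbp2 was at 187 CPM there and at 625, 600 and 631 CPM in the other 3 libraries (0.61, adjusted p = 0.592), and Irf1 was lowest there too, at 90.1 and 226 against 442 and 286 CPM (1.17, adjusted p = 0.282).

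A test of whether the genotype difference in phagocyte-like cells differed from that in T/NK-like cells called none of 42 members (0.54% of 11113 genes were called). The median difference between the classes was 0.01 on the log2 scale, 2 members had an unadjusted p under 0.05 with a larger value in phagocyte-like cells and 3 with a smaller one, against 526 and 593 of the 11113 genes. The calls in T/NK-like cells are not shown to be particular to that class.

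Plasmacytoid dendritic-like cells had 3 calls among the 18 members that passed the filter, all higher in the knockout, against 2.21% higher and 0.612% lower among 6213 genes. Irgm1, an immunity-related GTPase that guards host membranes, rose from 21.7 and 35.0 CPM to 113 and 87.6 CPM (log2 fold change 1.86, SE 0.32, adjusted p = 0.00164). Irf1 rose from 170 and 182 CPM to 272 and 330 CPM (0.83, SE 0.20, adjusted p = 0.0256). Ifi27l2a rose by the test from 439 and 241 CPM to 436 and 914 CPM (1.04, SE 0.28, adjusted p = 0.0443), but Il1a-/- replicate 1 lies within the WT range. DESeq2 called only Irgm1 of these.

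Bst2 and Irf7, both higher in this class than in T/NK-like cells, did not pass. Bst2 was at 2278 and 2534 against 2653 and 3062 CPM (0.29, SE 0.21, adjusted p = 0.556), and Irf7 at 67.1 and 106 against 62.2 and 69.6 CPM (-0.31, SE 0.29, adjusted p = 0.67). Stat2 (-0.08, adjusted p = 0.931), Isg15 (1.28, adjusted p = 0.261) and Ifitm3 (-0.38, adjusted p = 0.832) did not pass. Ifi44 was at 13.2 and 10.8 against 27.2 and 38.2 CPM (1.5, adjusted p = 0.0941), and Gbp7 had the lowest value, at 17.0 and 48.4 against 11.7 and 4.49 CPM (-2.04, adjusted p = 0.133). The 18 members had a median of 0.37, with 8 higher in both knockout libraries and 1 lower in both (21.3% and 24.8% of all genes).

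Fibroblast-like cells showed no call in either direction, with 0% of 9959 genes called higher and 0% called lower. Of 36 members tested, none had an unadjusted p under 0.05 with a higher value and 1 with a lower one, which was Zbp1, at 58.4 and 53.6 against 37.0 and 35.3 CPM (-0.60, SE 0.23, adjusted p = 0.841); DESeq2 called 0. Among all genes 2.86% and 2.15% had such an unadjusted p. The median was -0.14, which was 0.333 without WT replicate 1 and 0.0658 without Il1a-/- replicate 1. Knockout libraries were both higher for 1 member and both lower for 4 (16.8% and 19.9% of all genes). WT replicate 1 was the highest library for several members: Ifi27l2a was at 1255 CPM there and at 150, 458 and 152 CPM in WT replicate 2 and the 2 knockout libraries (-1.19, adjusted p = 0.875), and Ifitm3 at 2288 against 1068, 963 and 970 CPM (-0.77, adjusted p = 0.841). Slfn5, the member with a clear lead in fibroblast-like cells, was at 811 and 458 against 686 and 531 CPM (-0.04, adjusted p = 0.996). Rsad2 (1.06, adjusted p = 0.909), Irf1 (0.74, adjusted p = 0.886), Irf7 (-0.43, adjusted p = 0.91), Isg15 (0.05, adjusted p = 0.993), Ifit3 (-0.36, adjusted p = 0.958), Gbp2 (0.48, adjusted p = 0.841), Stat2 (0.30, adjusted p = 0.898) and Bst2 (0.01, adjusted p = 0.998) did not pass.

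**Figure D3:**
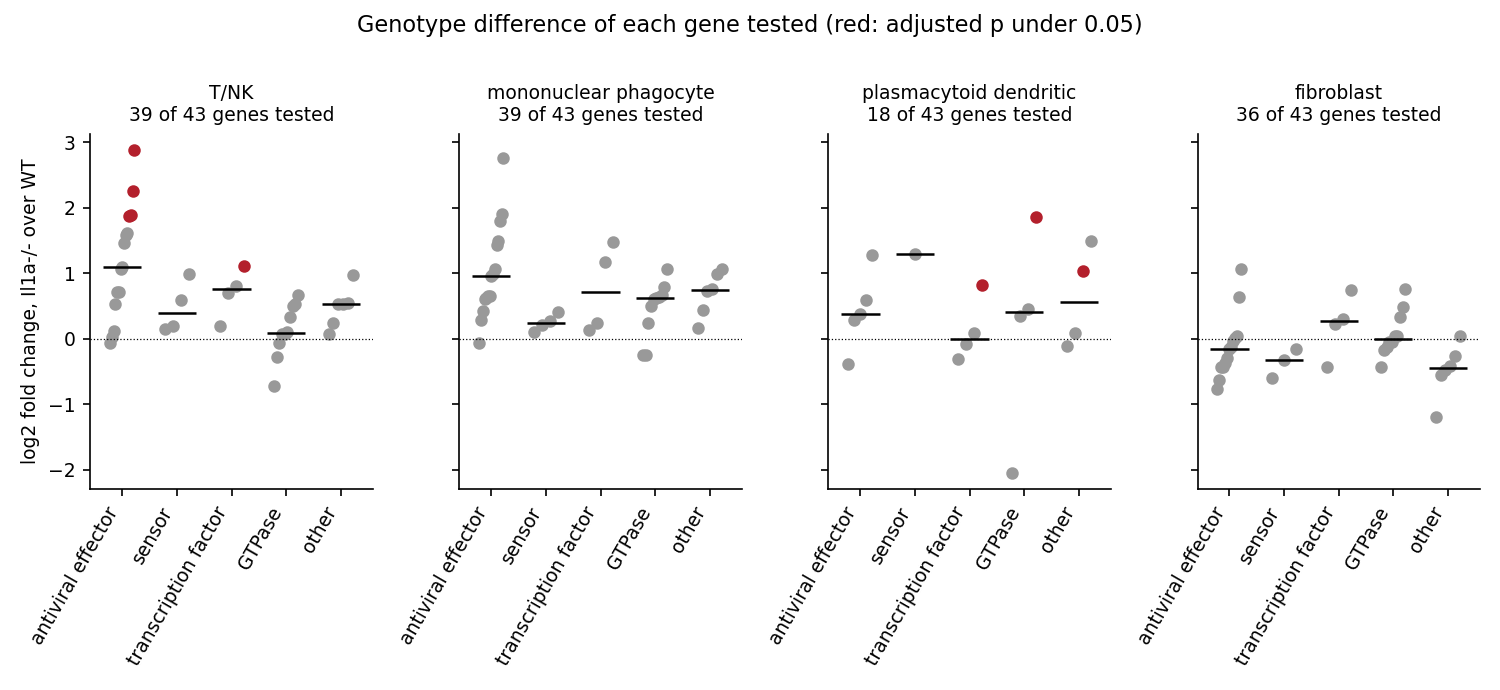
Log2 fold change of Il1a-/- over WT for each member tested, by role (x axis) and cell class (panels, suffix "-like" left out); red points have an adjusted p under 0.05 and black bars mark the median of each role group. The 5 red points in T/NK cells are 4 effectors and 1 transcription factor, the GTPases of that panel lie near 0, and phagocytes and fibroblasts have no red point.

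The rest of the pathway was read from 60 genes outside the set. Interferon ligands of type I and III were nearly absent: 17 genes gave 1 UMI in all called cells, in a T/NK-like cell of Il1a-/- replicate 2, and 0 in plasmacytoid dendritic-like cells. Interferon gamma was read in T/NK-like cells at 61.2 and 205 CPM in WT and 99.0 and 116 CPM in the knockout (-0.29, SE 0.47, adjusted p = 0.732). Its receptor chain Ifngr1 rose there from 418 and 458 CPM to 710 and 735 CPM (0.75, SE 0.17, adjusted p = 0.0467). The type I receptor chains did not pass in T/NK-like cells, Ifnar1 at 92.4 and 82.3 against 111 and 99.0 CPM (0.29, adjusted p = 0.272) and Ifnar2 at 50.8 and 45.8 against 36.9 and 50.2 CPM (-0.09, adjusted p = 0.788).

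Of 35 pathway genes tested in T/NK-like cells 5 rose and 1 fell, where 2.87% and 2.01% of all genes did. These genes were not fitted within the subsets, whose numbers differed between genotypes. Besides Ifngr1 the 5 were Irf4, a factor induced by antigen receptor signals (16.3 and 18.8 to 56.6 and 50.4 CPM, 1.63, adjusted p = 0.0103), Nlrc5, the transactivator of MHC class I genes (41.3 and 42.4 to 81.8 and 76.7 CPM, 0.95, adjusted p = 0.0193), Stat3 (1.11, adjusted p = 0.0379) and the feedback inhibitor Socs3 (0.81, adjusted p = 0.0419). Irf5 fell by 1.22 on the log2 scale (adjusted p = 0.0411), which DESeq2 did not call (adjusted p = 0.0893).

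In phagocyte-like cells 1 of 39 pathway genes passed: Nos2, the inducible nitric oxide synthase, at 0 and 9.16 CPM in WT and 101 and 172 CPM in the knockout (4.71, SE 0.71, adjusted p = 0.05 as rounded, under the threshold before rounding). The interferon gamma-induced chemokines varied between libraries of 1 genotype, with Cxcl9 at 335 and 1166 against 2537 and 216 CPM (0.80, adjusted p = 0.739) and Cxcl10 at 26.2 and 174 against 435 and 61.1 CPM (1.10, adjusted p = 0.635). DESeq2 did not call Nos2 (adjusted p = 0.476). No pathway gene passed in fibroblast-like cells (32 tested). None of 29 passed in plasmacytoid dendritic-like cells, where Irf8, a factor of dendritic cell development, was closest. Irf8 was at 2672 and 2957 CPM in WT and 1820 and 1401 CPM in the knockout (-0.77, SE 0.21, edgeR adjusted p = 0.0503), and DESeq2 called it (adjusted p = 0.0391). Over all cells Irf4 of 42 passed with edgeR (1.69, adjusted p = 0.0458), and DESeq2 also called others, among them Ifngr1, Nlrc5 and Stat3.

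The GTPases also differed between the 2 WT tumours. In tumour epithelial-like cells, which could not be tested by genotype, all 43 members were higher in WT replicate 2 (242 cells) than in WT replicate 1 (355 cells). The 10 GTPases summed to 148 CPM in WT replicate 1 and 3692 CPM in WT replicate 2, a ratio of 25, and to 6920 CPM in the 25 cells of Il1a-/- replicate 1. Iigp1 was at 47.9 CPM, 2269 CPM and 1743 CPM in WT replicate 1, Il1a-/- replicate 1 and WT replicate 2, and Gbp2 at 20.6, 1091 and 606 CPM. Cxcl9, which is not a member, had the same order, at 4.90, 5459 and 489 CPM.

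The same order of the WT tumours held for the summed GTPases in the other immune classes, with smaller ratios. All 10 were higher in WT replicate 2 in phagocyte-like (3.20-fold in sum), conventional dendritic-like (3.52-fold), plasmacytoid dendritic-like (2.33-fold) and T/NK-like cells (1.40-fold). Other roles differed too. Over all 43 members, 37 were higher in WT replicate 2 in phagocyte-like cells and 36 in T/NK-like cells. The effector sum was 1.46-fold higher there in T/NK-like cells and 1.01-fold in phagocyte-like cells. The share among all genes was not worked out. In T/NK-like cells Ifng was also higher in WT replicate 2, at 205 against 61.2 CPM; its part in these values was not tested. In fibroblast-like cells 6 of the 10 GTPases were higher in WT replicate 2, with sums of 475 CPM in WT replicate 1 and 551 CPM in WT replicate 2. Over all members these cells went the other way, with 35 of 43 higher in WT replicate 1 and a summed level 2.05 times that of WT replicate 2. With 1 tumour each these are differences between tumours without a replicate check.

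**Figure D4:**
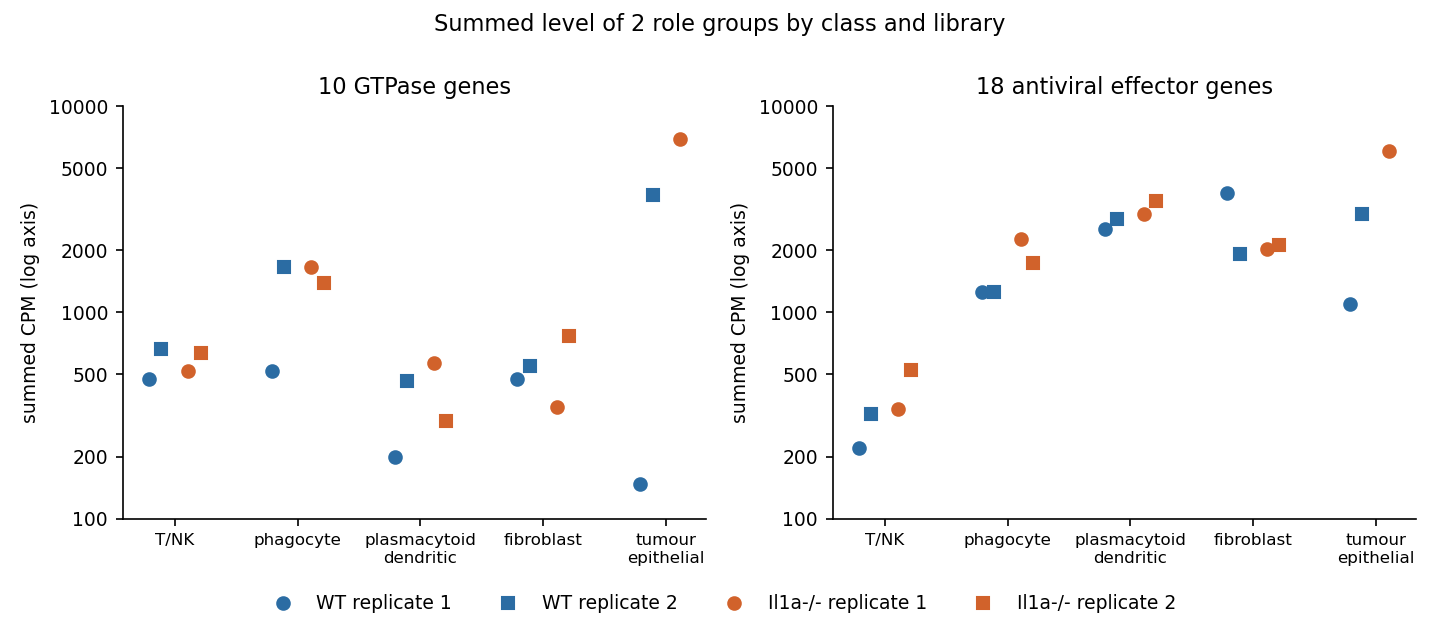
Summed level (CPM, log axis) of the 10 GTPases and the 18 antiviral effectors in 5 cell classes; points are libraries with at least 20 cells of the class, and the suffix "-like" is left out. In tumour epithelial cells the GTPase sum runs from 148 CPM in WT replicate 1 to 6920 CPM in Il1a-/- replicate 1, while in T/NK cells the 4 libraries lie between 474 and 663 CPM.

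The last comparison asked how widely the members were spread over single cells. Each cell was thinned to 1000 UMIs to compare libraries at 1 depth, and cells below that depth were left out (557 of 2045 T/NK-like cells of Il1a-/- replicate 1, and 43, 47 and 83 in the other libraries). At least 3 member UMIs were found in 19.3% and 25.3% of T/NK-like cells in WT and in 21.6% and 34.1% in Il1a-/- hosts. Without thinning the shares were 63.8% and 79.3% against 35.2% and 74.1%, with the shallowest library lowest. In phagocyte-like cells the thinned shares were 43.6% and 61.7% in WT and 84.5% and 61.8% in the knockout. In plasmacytoid dendritic-like cells they were 62.0% and 71.6% against 79.8% and 85.4%, and in fibroblast-like cells 74.8% and 51.8% against 56.7% and 60.8%. The separation in plasmacytoid dendritic-like cells depended on the depth chosen. At 500 UMIs per cell the shares there were 31.0% and 41.5% against 29.6% and 52.4%, which overlap, and at 1500 UMIs they were 89.0% and 90.9% against 90.2% and 92.6%. Without Ifitm3, Ifi27l2a and Bst2 they were 8.94% and 13.7% against 20.2% and 15.9% at 1000 UMIs.

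**Figure D5:**
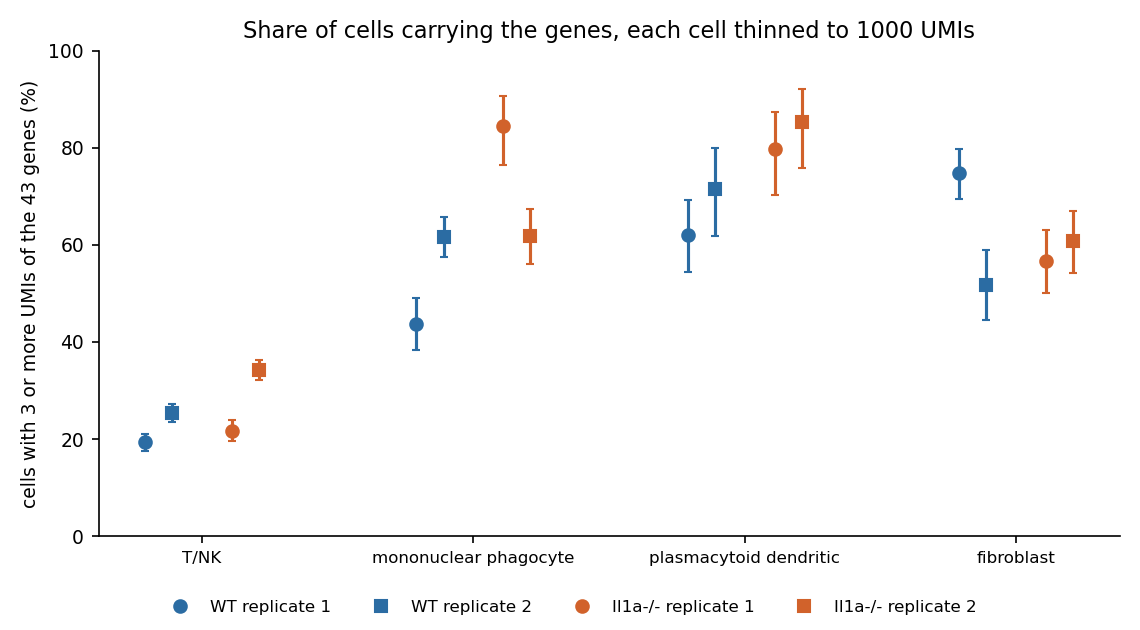
Percent of cells with 3 or more UMIs of the 43 genes after each cell was thinned to 1000 UMIs; bars are exact Clopper-Pearson 95% intervals that cover counting error only, and the suffix "-like" is left out. The Il1a-/- libraries lie at 21.6% and 34.1% in T/NK cells and at 79.8% and 85.4% in plasmacytoid dendritic cells.

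A narrower view used Rsad2, Ifit1, Ifit2, Ifit3, Isg15 and Irf7, 6 members of which 5 rose in T/NK-like cells, so these shares describe the same difference and add no support to it. At 1000 UMIs per cell, at least 1 UMI of the 6 was found in 3.5% and 3.59% of T/NK-like cells in WT and in 6.92% and 10.0% in the knockout. UMIs of at least 2 of the 6 genes in 1 cell were found in 0.304% and 0.56% against 0.874% and 1.91%. Most T/NK-like cells of each library had no UMI of these genes, which at this depth does not show that they lack the transcripts. In phagocyte-like cells at least 1 UMI of the 6 was found in 2.91% and 6.62% in WT and in 12.7% and 13.5% in the knockout.

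Some members share sequence with near-identical genes, so that their counts are less certain. Of the last 500 bases of each transcript, compared in words of 60 bases, Tgtp2 shared 71.7% with Tgtp1 and a predicted gene, Oas1a 51.2% with Oas1g, Trim30a 19.4% with Trim30d, Ifit3 12.9% with Ifit3b and Gbp4 11.1% with other Gbp genes. None of Rsad2, Isg15, Ifit1, Irf7, Irf1 and Bst2 shared a word with another gene.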

How the data were processed

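Single-cell suspensions of 4 tumours were sequenced as 10x 3′ libraries. The authors deposited UMI counts per gene and barcode, made with Cell Ranger 3.1.0 per the submitters' processing notes, over combined human and mouse features. A barcode was kept as a cell from 500 UMIs and 250 genes upward if mitochondrial UMIs made up no more than 20%. Cells were classed by marker UMIs. Cells whose highest relative marker level was under 2 times the next were given no class (888), as were those with too few markers (1232). Both stayed in the sums over all called cells, and no doublet caller was run.

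Counts were summed per library and class and tested with edgeR 4.0.16 (quasi-likelihood, TMM, low-count filter, Benjamini-Hochberg threshold 0.05, n = 2 per genotype, no block); DESeq2 1.42.0 was an alternative. CPM are counts per 1000000 UMIs of the class. The fits were also run on counts simulated for T/NK-like and phagocyte-like cells, with the same spread between libraries for every gene. This gives no error rate for the real libraries, where the spread varied between genes. Genes were named in each class if they passed, were among the 3 highest in level or the 3 largest in difference, or stood on a list of 9 key members (Rsad2, Isg15, Ifit3, Irf7, Stat2, Irf1, Gbp2, Ifitm3, Bst2); others were named after their values were seen. Members, lists and rules were chosen with earlier results of these data known. The planned tests of conventional dendritic-like cells were not run because a library held 13 cells. Intervals cover counting error only. A gene of the pathway list is not reported here.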

Additional observations from a re-analysis of the deposited data

Results flagged for a closer look

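The genotype difference of Zbp1 had opposite signs in 2 classes: it was 1.30 on the log2 scale in plasmacytoid dendritic-like cells (edgeR adjusted p = 0.246) and -0.60 in fibroblast-like cells (adjusted p = 0.841), 1.9 apart. Ifitm3 was at 0.65 in phagocyte-like cells (adjusted p = 0.261) and -0.77 in fibroblast-like cells (adjusted p = 0.841), 1.42 apart. In each case both knockout libraries lay above both WT libraries in the first class and below them in the second. Neither difference between classes was itself tested.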

How the results depend on the processing

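With 2 tumours per genotype and shallower knockout libraries, counts of calls moved with the settings, and the cause was not tested. The share of all genes called is not given beside the counts in this section. They therefore describe the settings and do not set the members apart from other genes. Members called higher over all cells (1 in the report) were 4 with DESeq2, 3 with no low-count filter and 0 with at least 1000 UMIs per cell, with at most 10% mitochondrial UMIs or with cells thinned to 1000 UMIs; 1 was called lower with DESeq2 and with no filter. In phagocyte-like cells 7 were higher with no filter and 2 with classes from clusters. In T/NK-like cells 16 were higher and 1 lower with no filter and 8 higher when thinned; CD8 T-like cells alone gave 1 higher, and NK-like cells alone 1 lower and a median of 0.226. In plasmacytoid dendritic-like cells DESeq2 gave 1 higher, and no filter 1 lower. Thinning left 1 lower in phagocyte-like cells against T/NK-like cells, 7 higher and 5 lower in fibroblast-like cells, and 5 higher and 10 lower in plasmacytoid dendritic-like cells.

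Leaving out each library in turn gave 0 to 0 members higher over all cells, with medians of -0.00823 to 0.883. It gave 0 to 2 higher in phagocyte-like cells (2 without Il1a-/- replicate 1; medians 0.258 to 1.42), and 0 to 20 higher and 0 to 1 lower in T/NK-like cells (medians 0.129 to 0.926). Fibroblast-like medians ran from -0.59 to 0.333, with 0.0658 without Il1a-/- replicate 1. In plasmacytoid dendritic-like cells 2 to 3 were higher and 0 to 1 lower. The test between classes gave 0 to 4 calls (4 without WT replicate 2). The share of T/NK-like cells with at least 3 member UMIs differed by 5.58 percentage points, and by -0.669 to 11.8 in these fits (-0.669 without Il1a-/- replicate 2).

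The replicate block gave 7 members higher and 1 lower over all cells, 2 higher in phagocyte-like cells, 14 higher in T/NK-like cells and 1 lower in plasmacytoid dendritic-like cells. The labels do not say that a replicate number marks a pair, and deviations of same-numbered libraries correlated at 0.297 over all cells, 0.0383 in phagocyte-like, 0.179 in T/NK-like, 0.402 in fibroblast-like and 0.0778 in plasmacytoid dendritic-like cells. For single genes, 415 values stayed on their side of the threshold, 39 passed it newly and 27 no longer passed. Among the 415, genes that were not called could change direction. The fold change of Irf1 in fibroblast-like cells, for example, ran from -0.684 to 1.41 as libraries were left out. The planned tests of conventional dendritic-like cells gave no value.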
